A study of Mus musculus with 6 samples.

Results

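The Rab GTPase family was examined in a mouse cell line with a knockdown of Copa. Members were all genes of the count table whose mouse symbol was Rab followed by a number and an optional letter, with at least 10 counts in 3 or more libraries. Effectors and Rab-like genes were left out by this rule. It kept 49 genes of 59 with such a symbol, in a table of 55414 gene identifiers, and did not use the difference between the groups. All 49 also passed the filter on low counts and were tested.

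RNA was sequenced from AY-mICC, a mouse line which the study used as a model of cholangiocarcinoma, the cancer of bile ducts, arising inside the liver. There were 3 libraries of cells labelled shCopa, with Copa knocked down by what the name marks as a short hairpin RNA, and 3 libraries of shCon cells, labelled as the control genotype. Both groups were grown in the same medium and had no other treatment. The product of Copa is the alpha subunit of COPI, a coat on vesicles that return proteins from the Golgi to the endoplasmic reticulum (ER) and move them within the Golgi. The labels do not say how many hairpins or clones were used, nor whether the libraries of a group came from separate cultures, so the p-values measure the spread between these libraries, which may be technical.

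Rab proteins are small GTPases of the Ras superfamily that give membranes their identity. In the GTP-bound form, set by an exchange factor, a Rab sits in a membrane through prenyl groups on its C-terminus and recruits effectors such as motors, tethers and sorting complexes. A GTPase-activating protein returns it to the GDP-bound form, which is drawn out of the membrane and carried through the cytosol by a soluble partner. Different members mark different steps: Rab1 and Rab2 between ER and Golgi, Rab6 at the Golgi, Rab5 on early endosomes, Rab4 and Rab11 on recycling endosomes, Rab7 on late endosomes, and Rab3, Rab8 and Rab27 on vesicles bound for the cell surface. In epithelial cells such as those of the bile duct, Rab8, Rab10 and Rab11 take part in delivery to the apical or basolateral surface.

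The libraries held 21935271, 22824582 and 19634876 counts in shCopa replicates 1 to 3, against 22282547, 23593067 and 24546142 in shCon replicates 1 to 3. Values below are CPM, counts scaled to library size, and differences are log2 fold changes with SE from edgeR's quasi-likelihood fit over 14807 genes, with adjusted p below 0.05 as the threshold. Copa itself was at 186, 182 and 187 CPM in shCopa and 420, 517 and 527 CPM in shCon, a log2 fold change of -1.40 ± 0.11 (edgeR adjusted p = 0.000149), or 37.9% of the control level. shCon replicate 1 stood apart: it correlated at r = 0.9734 and 0.9719 with the other shCon libraries, which correlated with each other at 0.9898, and the shCopa libraries at 0.9888 to 0.9907, across genes on the log2 scale. Of the Rab members, 13 (26.5%) were at least 1.3 times as high in shCon 1 as in either other shCon library, and 0 were at most 0.77 times as high; over all tested genes the shares were 18.8% and 19.8%. Keratin and other bile duct markers summed to 4020 to 4237 CPM in shCopa and 5094 to 6089 CPM in shCon, with Epcam, a surface protein of epithelia, under 1 CPM. Hepatocyte markers summed to 22.8 to 24.3 CPM in shCopa and 8.37 to 13.5 CPM in shCon, with 1 of 6, Cyp3a11, at 0 and 4 under 1 CPM. Fibroblast markers summed to 168 to 182 CPM in shCopa and 184 to 223 CPM in shCon, leukocyte markers to 9.21 to 9.91 and 1.31 to 1.81 CPM, and endothelial markers to 1.55 to 3.59 and 0.0822 to 0.232 CPM, in the same order of groups. Most of the fibroblast sum was Dcn, at means of 170 CPM in shCopa and 202 CPM in shCon. The other fibroblast markers were at 2.27 CPM or less, with Col1a1, Col1a2 and Pdgfra higher on average in shCopa and Pdgfrb lower. Lyz2 made up most of the leukocyte sum, at means of 8.21 CPM in shCopa and 1.46 CPM in shCon. The part of these cell types in the differences among Rab genes was not tested.

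Transcripts of 16 of the 49 Rab genes fell in shCopa cells and those of 4 rose. The falls were led by Rab43, a Rab of the Golgi, by Rab40b, and by Rab27b and Rab3a of regulated secretion. Rab20 and Rab32 led the rises. In RNA from bulk cells, fewer cells with a transcript and less of it per cell cannot be told apart. The shares of 32.7% lower and 8.16% higher stand beside 18.4% and 18.2% of all 14807 tested genes, of which 36.5% passed in either direction. With library totals alone as the scaling, 13 members were lower and 7 higher, where 16.4% and 20.3% of all tested genes were. Without shCon 1, 18 were lower and 9 higher, where 27% and 28.3% of all tested genes were. Without shCopa 1, 2 or 3, lower members numbered 8, 9 and 9 and higher members 2, 2 and 3, where 11.6% to 11.8% of all tested genes were lower and 11.7% to 12.7% higher. Without shCon 2, 12 were lower and 2 higher, where 15.4% and 14.5% of all tested genes were. The calls of 10 members held in all 15 alternatives: Rab43, Rab40b, Rab27b, Rab3a, Rab8b, Rab7b, Rab2b and Rab31 as lower, Rab20 and Rab32 as higher. The median log2 fold change of the members was -0.15, against -0.01 over all tested genes.

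The groups did not overlap in 29 members, where 54% of all tested genes had such groups. Of these 21 were lower and 8 higher in shCopa, beside 26.9% and 27.2% of all tested genes. These included all 20 members that passed and 9 that did not. A fall of 2-fold or more that passed was seen in 6 members, Rab43, Rab40b, Rab27b, Rab3a, Rab8b and Rab7b, beside 6.31% of all tested genes. The largest rise that passed was 1.96-fold, in Rab20, while 7.55% of all tested genes rose by 2-fold or more.

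**Figure D1:**
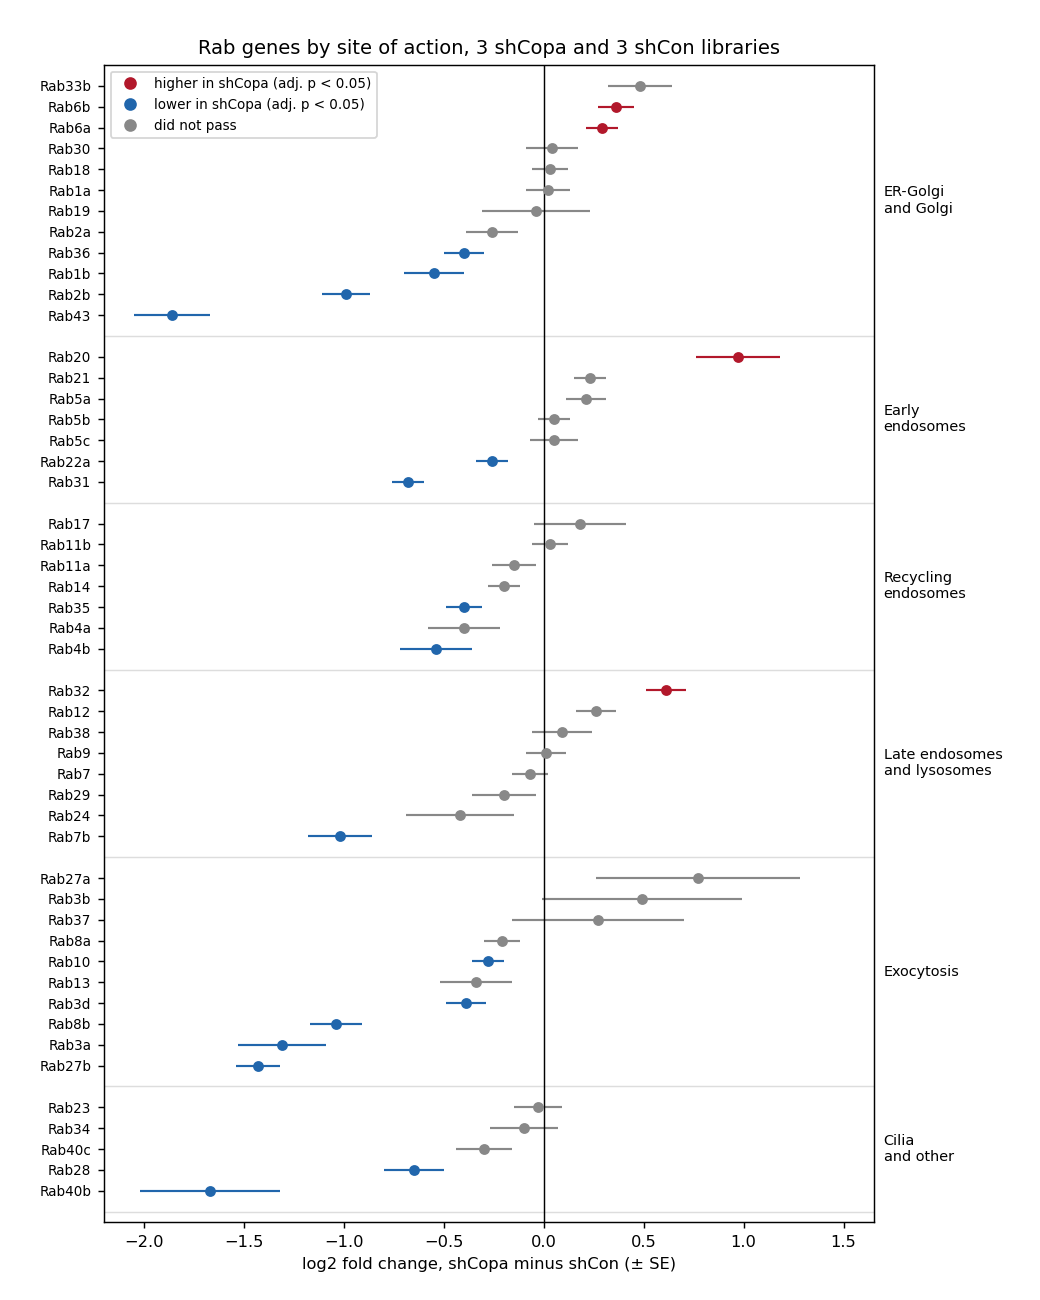
Log2 fold change (shCopa minus shCon, x axis) with SE of the 49 Rab genes from edgeR's quasi-likelihood fit, in blocks by site of action. The 16 blue genes, led by Rab43 at -1.86, lie left of the line and the 4 red genes, led by Rab20 at 0.97, right of it.

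The upstream sequences of 40 of the 49 members were matched by symbol in a RefSeq table (mouse build GRCm38.p6), each running from 250 bases before to 50 bases after a transcript start. A total of 4 are shown here because they belong to members with marked changes and show the motifs that were counted across the family. Rab40b, Rab8b and Rab2b fell and Rab20 rose. Capitals mark CCAAT or its reverse complement ATTGG and, in Rab20, CACGTG, the palindrome known as an E-box.
Rab40b, chr11:121388202-121388501, minus strand: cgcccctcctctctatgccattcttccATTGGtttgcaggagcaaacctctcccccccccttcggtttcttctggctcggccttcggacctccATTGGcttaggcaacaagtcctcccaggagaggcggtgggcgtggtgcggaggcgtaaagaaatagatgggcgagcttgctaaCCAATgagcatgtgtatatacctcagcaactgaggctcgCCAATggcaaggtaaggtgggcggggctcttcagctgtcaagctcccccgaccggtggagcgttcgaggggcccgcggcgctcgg
Rab8b, chr9:66919656-66919955, minus strand: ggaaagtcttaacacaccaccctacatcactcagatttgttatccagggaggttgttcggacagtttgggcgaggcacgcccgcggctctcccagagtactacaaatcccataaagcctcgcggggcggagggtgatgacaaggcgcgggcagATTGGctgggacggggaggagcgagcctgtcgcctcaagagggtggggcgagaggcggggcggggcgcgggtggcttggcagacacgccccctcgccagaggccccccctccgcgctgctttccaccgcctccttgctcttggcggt
Rab2b, chr14:52279346-52279645, minus strand: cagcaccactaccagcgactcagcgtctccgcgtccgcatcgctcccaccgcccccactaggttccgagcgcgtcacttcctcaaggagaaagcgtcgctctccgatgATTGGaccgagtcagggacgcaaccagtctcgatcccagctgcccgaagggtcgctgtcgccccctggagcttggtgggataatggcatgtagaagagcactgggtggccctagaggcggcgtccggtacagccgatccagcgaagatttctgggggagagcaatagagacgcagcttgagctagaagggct
Rab20, chr8:11478591-11478890, minus strand: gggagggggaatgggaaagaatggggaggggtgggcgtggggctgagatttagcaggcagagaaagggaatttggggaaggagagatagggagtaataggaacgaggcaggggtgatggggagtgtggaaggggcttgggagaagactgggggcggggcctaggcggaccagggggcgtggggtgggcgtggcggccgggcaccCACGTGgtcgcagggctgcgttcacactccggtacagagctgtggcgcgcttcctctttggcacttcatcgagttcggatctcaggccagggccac

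The window of Rab40b held 4 CCAAT matches and those of Rab8b and Rab2b 1 each. Counted on both strands, CCAAT was present in 11 of 13 members that fell, 1 of 4 that rose and 10 of 23 that did not pass. In all, 22 of 40 members (55%) held it, against 43.1% of the 10674 tested genes with a window. Among all tested genes its share was 43.7% of those lower, 43.2% of those higher and 42.8% of those that did not pass. A gene counted as holding a motif if any of its windows did. Over all 27025 genes with a window the share was 41.1%, and over the 32851 single windows 37.4%.

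The GC-rich letters GGGCGG, or their reverse complement, stood in the windows of all 13 matched members that fell, 2 of 4 that rose and 16 of 23 that did not pass, against 72.6%, 62.7% and 67% of tested genes in the same classes and 35.7% of all windows. Median GC content of the Rab windows was 62.7% and median CpG number 23, against 52.7% and 7 over all windows. Many of those windows belong to genes that were not tested here. GGGCGG stood in 67.3% of tested genes, against 38.2% of all genes with a window. Whether the Rab windows differ in GC content from those of other tested genes was not tested. CACGTG was found in 6 of 40 members, Rab20 among them and none of the 13 that fell, against 11.3% of tested genes and 7.15% of windows. ACGTG, which lies within CACGTG and within TGACGTGG, was found in 12 of 40 members, 1 of 4 higher, 1 of 13 lower and 10 of 23 that did not pass, against 28.7% of tested genes. TGACGTCA stood in 1 member's window, TGACGTGG in 0, and the interferon-stimulated response element in 1, that of Rab19. These matches describe letters in a window and were not tested against the fold changes.

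Members were grouped by site of action. Over all tested genes 18.4% fell and 18.2% rose, and these shares stand beside the counts of every group below. In groups this small, 1 gene moves a share by much. Among the 12 Rab genes of the ER-Golgi route and the Golgi, 4 fell (33.3%), 2 rose (16.7%) and 6 did not pass. Their median log2 fold change was -0.01. Rab43 (ENSMUSG00000030055), which acts at the Golgi and in transport between ER and Golgi, was at 7, 11.3 and 7.94 CPM in the shCopa libraries and 32.6, 28.9 and 33.6 CPM in the shCon libraries. Every shCopa library was below every shCon library by a wide gap. The means were 8.74 ± 2.25 and 31.7 ± 2.51 CPM (SD, n = 3 each), so the log2 fold change was -1.86 ± 0.19 (edgeR adjusted p = 0.0004), or 27.6% of the control level. This was the largest fall among the 49 members.

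Rab2b (ENSMUSG00000022159), a paralog of Rab2a that acts at the Golgi, was at 14.8, 12.4 and 13.7 CPM in shCopa and 24.6, 27.6 and 29.1 CPM in shCon, a log2 fold change of -0.99 ± 0.12 (edgeR adjusted p = 0.000807). The lowest shCon library was well above the highest shCopa library. For Rab1b, which with Rab1a drives transport of vesicles leaving the ER, values were 128, 141 and 125 CPM in shCopa and 235, 179 and 161 CPM in shCon. The groups did not overlap, but shCon 1 was far above the other shCon libraries. Its log2 fold change was -0.55 ± 0.15 (edgeR adjusted p = 0.0249), -0.38 without shCon 1, and past the threshold no longer without shCopa 1, 2 or 3 (edgeR adjusted p = 0.0938, 0.0611 and 0.102). Rab36, a Rab linked to the placement of late endosomes and lysosomes near the Golgi, was at 15.4, 15.8 and 14.1 CPM in shCopa and 20.7, 19.3 and 20 CPM in shCon, a log2 fold change of -0.40 ± 0.10 (edgeR adjusted p = 0.0195), which did not pass without shCopa 1, 2 or 3 (edgeR adjusted p = 0.0666, 0.0611 and 0.0885).

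Both Rab6 genes rose. Rab6a, which works in traffic from the Golgi back to the ER and from the Golgi to the cell surface, was at 224, 220 and 235 CPM in shCopa and 176, 188 and 193 CPM in shCon. The groups were apart, with a log2 fold change of 0.29 ± 0.08 (edgeR adjusted p = 0.0319). Rab6b, the form best known from nervous tissue, was at 74, 74 and 68.3 CPM in shCopa and 51.9, 57.6 and 59.4 CPM in shCon, a log2 fold change of 0.36 ± 0.09 (edgeR adjusted p = 0.0199). Neither call held in every fit with a library left out: Rab6a did not pass when any library but shCon 1 was left out (edgeR adjusted p = 0.0581 to 0.127), and Rab6b without shCopa 1, shCopa 2 or shCon 2 (edgeR adjusted p = 0.0829, 0.0915 and 0.0541).

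The more abundant partners of Rab1b and Rab2b did not pass. Rab1a had 338, 353 and 343 CPM in shCopa and 387, 304 and 330 CPM in shCon, groups that overlapped, with a log2 fold change of 0.02 ± 0.11 (edgeR adjusted p = 0.91). Rab2a had 118, 114 and 124 CPM in shCopa and 170, 126 and 130 CPM in shCon, with a log2 fold change of -0.26 ± 0.13 (edgeR adjusted p = 0.161). Rab33b, a Golgi Rab that binds an autophagy complex, was just outside the threshold at 27.7, 29.9 and 26.3 CPM in shCopa and 25.1, 17.8 and 17.4 CPM in shCon, with a log2 fold change of 0.48 ± 0.16 (edgeR adjusted p = 0.0509). Without shCon 1 its log2 fold change was 0.67 (edgeR adjusted p = 5.65e-06). Rab18, a Rab of lipid droplets and the ER, Rab19 and Rab30 had log2 fold changes of 0.03, -0.04 and 0.04.

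**Figure D2:**
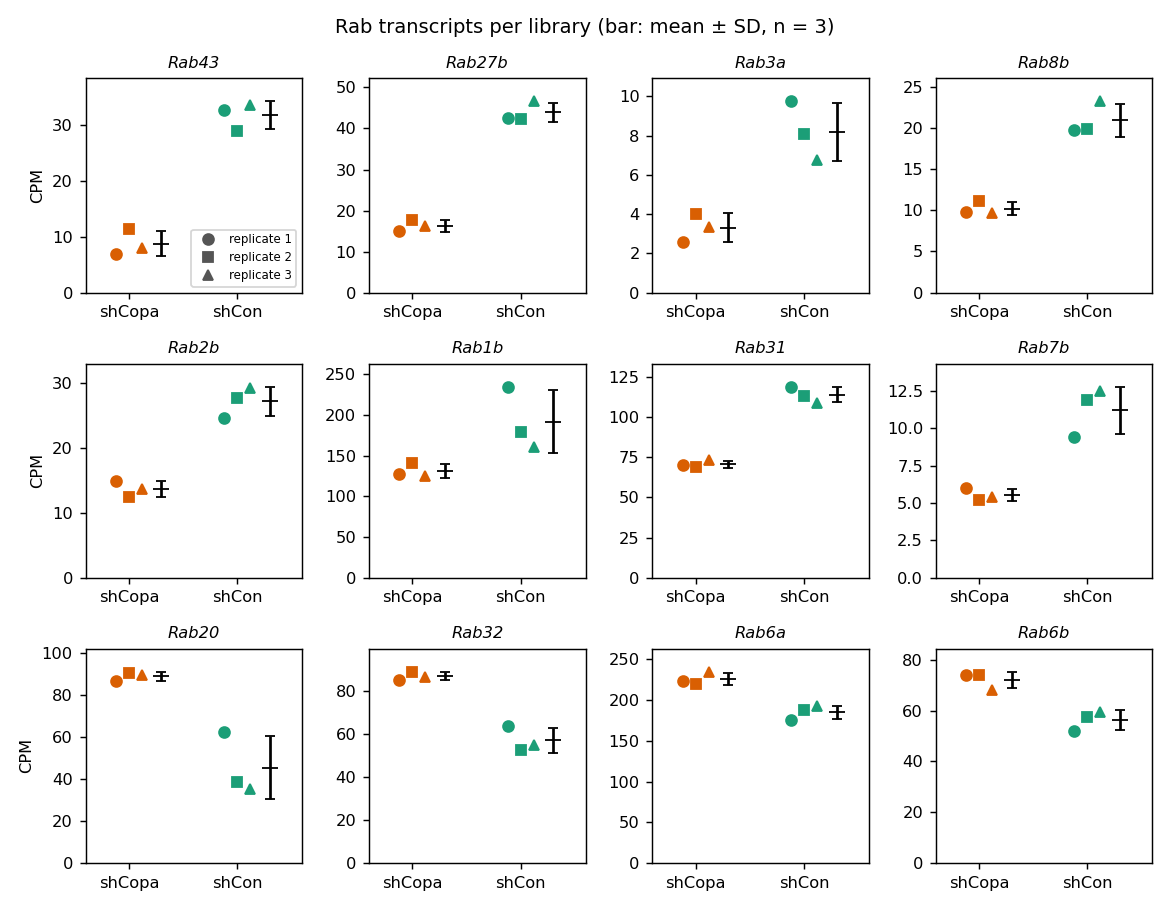
CPM in each library (points) with mean and SD (n = 3) of 12 Rab genes, with shCopa left of shCon in every panel and axes that differ between panels. Rab43 averaged 8.74 CPM in shCopa and 31.7 CPM in shCon, while for Rab20 and Rab32 the shCopa points lie above and closer together than the shCon points.

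Of the 7 Rab genes of early endosomes 1 rose (14.3%), 2 fell (28.6%) and 4 did not pass, with a median of 0.05. Rab20 (ENSMUSG00000031504), a Rab of endosomes and of maturing phagosomes, was at 86.5, 90.6 and 89.6 CPM in shCopa and 62.5, 38.7 and 35.1 CPM in shCon. The shCopa libraries lay close together and above all shCon libraries, among which shCon 1 was the highest. The means of 88.9 ± 2.15 and 45.4 ± 14.9 CPM (SD, n = 3 each) differed by a log2 fold change of 0.97 ± 0.21 (edgeR adjusted p = 0.00964), and 1.27 without shCon 1. This was the largest rise among the members that passed.

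Rab31, which carries cargo between the trans-Golgi network and endosomes, was at 70.4, 68.8 and 73 CPM in shCopa and 119, 113 and 109 CPM in shCon. All shCon libraries were above all shCopa libraries, with a log2 fold change of -0.68 ± 0.08 (edgeR adjusted p = 0.000841). Its close relative Rab22a, also a Rab of early endosomes and recycling, fell by less, with a log2 fold change of -0.26 ± 0.08 (edgeR adjusted p = 0.0357), and passed only with all libraries or without shCon 1 among the fits that leave a library out. The 3 Rab5 genes, which drive fusion of early endosomes, did not pass: Rab5a had 116, 112 and 122 CPM in shCopa and 111, 93 and 98.6 CPM in shCon, with a log2 fold change of 0.21 ± 0.10 (edgeR adjusted p = 0.126), and Rab5b and Rab5c were at 0.05 each. Without shCon 1, Rab5c had a log2 fold change of 0.18 (edgeR adjusted p = 0.0166), Rab5a had a log2 fold change of 0.28 (edgeR adjusted p = 0.000628) and Rab21, a Rab of integrin uptake, 0.25 (edgeR adjusted p = 0.000707), beside 0.23 ± 0.08 (edgeR adjusted p = 0.0575) with all libraries.

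Of the 7 Rab genes of recycling endosomes 2 fell (28.6%) and 5 did not pass, with a median of -0.20. Rab35, of the fast recycling route and of cell division, was at 75.4, 87.3 and 84 CPM in shCopa and 111, 105 and 109 CPM in shCon, groups well apart, with a log2 fold change of -0.40 ± 0.09 (edgeR adjusted p = 0.0121). Without shCopa 1 or shCopa 3 it did not pass (edgeR adjusted p = 0.062 and 0.0506). Rab4b was at 21.4, 22.3 and 27.7 CPM in shCopa and 43.5, 30.6 and 29.9 CPM in shCon. Its groups were close, and its log2 fold change of -0.54 ± 0.18 passed narrowly (edgeR adjusted p = 0.0489); the call was lost in 10 of 15 alternatives, among them the fits without shCopa 1, 2 or 3 or shCon 2 (edgeR adjusted p = 0.164, 0.156, 0.0606 and 0.0549). Rab11a, the main Rab of slow recycling, had 178, 175 and 174 CPM in shCopa and 223, 174 and 191 CPM in shCon, groups that overlapped, with a log2 fold change of -0.15 ± 0.11 (edgeR adjusted p = 0.306). Rab4a, Rab11b, Rab14 and Rab17 had log2 fold changes of -0.40, 0.03, -0.20 and 0.18 without passing. Rab4a passed without shCon 3 at -0.57 and Rab14 without shCon 1 at -0.22 (edgeR adjusted p = 0.0189 and 0.00289).

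Of the 8 Rab genes of late endosomes, lysosomes and related organelles 1 rose (12.5%), 1 fell (12.5%) and 6 did not pass. Both shares were below those of all tested genes, and the median log2 fold change was -0.03. Rab7b (ENSMUSG00000052688), which works in transport from endosomes to the trans-Golgi network, was at 6.02, 5.19 and 5.41 CPM in shCopa and 9.43, 11.9 and 12.5 CPM in shCon. The groups were apart, with a log2 fold change of -1.02 ± 0.16 (edgeR adjusted p = 0.0023). Rab32 (ENSMUSG00000019832), a Rab of lysosome-related organelles and mitochondria, was at 85.2, 89.2 and 86.9 CPM in shCopa and 63.8, 52.6 and 54.8 CPM in shCon. Every shCopa library was above every shCon library, with a log2 fold change of 0.61 ± 0.10 (edgeR adjusted p = 0.00301).

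Rab7, which directs late endosomes to lysosomes, did not pass. It had 369, 389 and 410 CPM in shCopa and 429, 406 and 396 CPM in shCon, groups that overlapped, with a log2 fold change of -0.07 ± 0.09 (edgeR adjusted p = 0.538). Rab9, of retrieval from late endosomes, was at a log2 fold change of 0.01, Rab38 at 0.09, Rab12 at 0.26 and Rab29 at -0.20. Rab12 passed without shCon 1, at 0.34 (edgeR adjusted p = 0.000222). Rab24 had 22.1, 25.6 and 21.1 CPM in shCopa and 46, 22.3 and 23.9 CPM in shCon, so that its log2 fold change of -0.42 ± 0.27 (edgeR adjusted p = 0.271) became -0.01 without shCon 1.

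Of the 10 Rab genes of exocytosis and polarized delivery 5 fell (50%) and 5 did not pass, with a median of -0.31. Rab27b (ENSMUSG00000024511), which docks secretory vesicles and exosome-bearing endosomes at the plasma membrane, was at 14.9, 17.7 and 16.2 CPM in shCopa and 42.6, 42.4 and 46.6 CPM in shCon. The highest shCopa library was far below the lowest shCon library. Means were 16.3 ± 1.4 and 43.9 ± 2.3 CPM (SD, n = 3 each), so the log2 fold change was -1.43 ± 0.11 (edgeR adjusted p = 0.00012), or 37.1% of the control level. Rab27a, its partner in secretion and the least abundant member per length in shCon, was at 0.531, 0.692 and 1.01 CPM in shCopa and 0.464, 0.172 and 0.657 CPM in shCon, and the log2 fold change of 0.77 ± 0.51 did not pass (edgeR adjusted p = 0.278).

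Rab3a (ENSMUSG00000031840), a Rab of regulated secretion best known at synapses, was at 2.57, 4.02 and 3.34 CPM in shCopa and 9.75, 8.07 and 6.78 CPM in shCon. The groups did not overlap, with a log2 fold change of -1.31 ± 0.22 (edgeR adjusted p = 0.00367). Rab3d, of secretory granules in exocrine cells, was at 23.9, 24.6 and 25.5 CPM in shCopa and 33.4, 33.3 and 30 CPM in shCon, a log2 fold change of -0.39 ± 0.10 (edgeR adjusted p = 0.0162), which did not pass without shCopa 1, 2 or 3 or shCon 2 (edgeR adjusted p = 0.0532 to 0.0736). Rab8b (ENSMUSG00000036943), of delivery to the cell surface and junctions, was at 9.78, 11.1 and 9.61 CPM in shCopa and 19.7, 19.9 and 23.2 CPM in shCon. These groups were also apart, with a log2 fold change of -1.04 ± 0.13 (edgeR adjusted p = 0.000788).

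Rab10, of basolateral delivery and glucose transporter traffic, fell less, with a log2 fold change of -0.28 ± 0.08 (edgeR adjusted p = 0.0323), and did not pass when any library but shCon 1 was left out (edgeR adjusted p = 0.0692 to 0.127). Rab8a, which also works in the growth of primary cilia, had 75.2, 77.5 and 80 CPM in shCopa and 97.8, 85.7 and 85.4 CPM in shCon, without overlap and without passing, at a log2 fold change of -0.21 ± 0.09 (edgeR adjusted p = 0.116), and passed without shCon 1 at -0.14 (edgeR adjusted p = 0.046). Rab13, of tight junctions, was at -0.34 ± 0.18 (edgeR adjusted p = 0.167). Rab37 and Rab3b, at means of 0.889 and 0.639 CPM in shCopa and 0.742 and 0.449 CPM in shCon, had log2 fold changes of 0.27 ± 0.43 and 0.49 ± 0.50, with errors of about that size or larger.

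In the group of cilia and other Rab genes, 2 of 5 fell (40%) and 3 did not pass, with a median of -0.30. Rab40b (ENSMUSG00000025170), a member whose SOCS box joins it to a ubiquitin ligase, was at 0.531, 0.475 and 0.506 CPM in shCopa and 2.28, 1.25 and 1.36 CPM in shCon. All shCon libraries were above all shCopa libraries, though shCon 1 was the highest. The log2 fold change was -1.67 ± 0.35 (edgeR adjusted p = 0.0081), and -1.36 without shCon 1 (edgeR adjusted p = 0.00992). Its shCopa libraries held only 12, 11 and 10 counts. Rab28, a Rab of cilia, was at 24.2, 22.9 and 25.4 CPM in shCopa and 46.9, 35.4 and 31.9 CPM in shCon, a log2 fold change of -0.65 ± 0.15 (edgeR adjusted p = 0.0135) that became -0.48 without shCon 1 and did not pass without shCopa 1 or shCopa 2 (edgeR adjusted p = 0.0555 and 0.0637). Rab23, of hedgehog signalling, Rab34, of ciliogenesis, and Rab40c were at log2 fold changes of -0.03, -0.10 and -0.30. With offsets for length and GC content Rab34 turned to 0.23 (edgeR adjusted p = 0.0105).

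Members near the count rule carried little depth. Among them was Rab40b, which passed as lower, with 12, 11 and 10 counts in shCopa and 49, 29 and 33 in shCon. Rab3b, just inside the rule, had 18, 6 and 17 counts in shCopa and 11, 8 and 12 in shCon. Rab27a, also inside it, had 12, 16 and 20 counts in shCopa and 10, 4 and 16 in shCon. Just outside it, Rab15 had 2, 9 and 9 counts in shCopa and 0, 1 and 0 in shCon. Rab39b had 7, 9 and 7 counts in shCopa and 1, 3 and 3 in shCon, and Rab39 had 9, 4 and 4 counts in shCopa and 0, 1 and 0 in shCon. These, with 7 other Rab genes below the rule, were not tested. A floor of 3 counts corresponded to 0.122 to 0.153 CPM in 1 library, which covers counting error only, whereas 41 of the 49 members had 100 or more counts in every library.

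Members were also compared by level. As CPM per kilobase of exon, the highest members in shCon were Rab7 at 149 in shCopa and 157 in shCon, Rab5c at 108 and 104, Rab1a at 90.7 and 89.6, and Rab1b at 57.7 and 84.3, in the same order of groups. Rab2a at 55.8 in shCopa and 66.6 in shCon and Rab11a at 58.8 and 65.5 followed. Of these 6 only Rab1b passed the test. Rab20 was 12th of 49 in shCon, at 63.8 CPM per kilobase in shCopa and 32.6 in shCon. Rab43 was at 1.58 in shCopa and 5.74 in shCon, Rab27b at 1.52 and 4.11, and Rab40b at 0.251 and 0.81.

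Split by mean CPM per kilobase over all libraries, the 24 highest members (13.9 to 153) held 6 that fell, 3 that rose and 15 that did not pass, with a median log2 fold change of -0.03. The 25 lowest (0.152 to 13.3) held 10 that fell, 1 that rose and 14 that did not pass, with a median of -0.34. All 6 members that passed with a fall of 2-fold or more were among the 25 lowest. Of all tested genes within the level range of the 24, 22% fell, 17.1% rose and 4.84% fell by 2-fold or more, and within that of the 25, 17.8%, 17.9% and 6.82% did. Log2 fold changes ran from -0.68 to 0.97 in the upper 24 and from -1.86 to 0.77 in the lower 25. Summed over the 49 genes, Rab counts took 0.4014%, 0.4061% and 0.4075% of all counts in shCopa and 0.4352%, 0.3928% and 0.3999% in shCon, groups that overlapped.

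**Figure D3:**
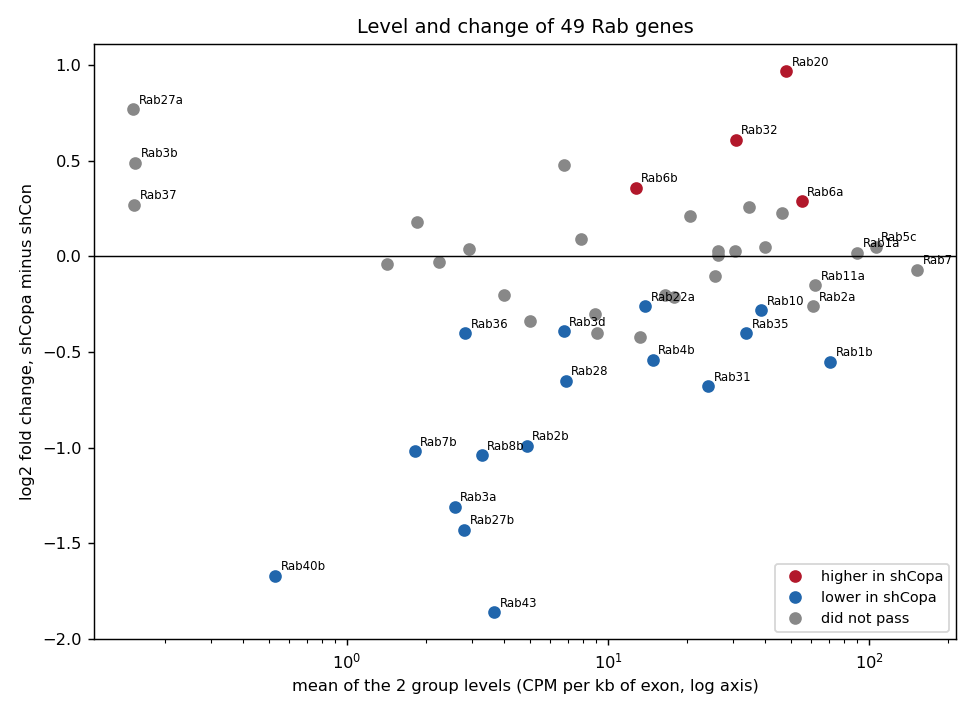
Log2 fold change (shCopa minus shCon, y axis) of the 49 Rab genes, coloured by call. The log x axis gives the mean of the 2 group levels in CPM per kilobase of exon. The 6 genes past -1 had shCon levels of 0.81 to 5.74 CPM per kilobase, while Rab7, Rab5c and Rab1a at the high end lie near 0.

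Close paralogs were compared within each library by the log2 ratio of their counts, with 0.5 added to each count, in 15 pairs. An exact two-sided permutation test over 3 and 3 libraries cannot give a p below 0.1, which is 0.167 after adjustment over the 15 pairs, so no pair could pass 0.05. The ratios of the groups did not overlap in 9 pairs (60%), near the 54% of single tested genes without overlap. In the Rab2, Rab3, Rab7, Rab8 and Rab40 pairs the partner with the lower level per length had the larger fall, whereas Rab27b and Rab31 were the higher partners of theirs, and Rab1a and Rab1b were at similar levels in shCon. The log2 ratio of Rab1a to Rab1b was 1.41, 1.32 and 1.46 in shCopa and 0.72, 0.77 and 1.04 in shCon, a difference of 0.56 (exact permutation p = 0.1). That of Rab2a to Rab2b was 3, 3.21 and 3.18 in shCopa and 2.79, 2.20 and 2.16 in shCon, a difference of 0.75 (exact permutation p = 0.1). The ratio of Rab8a to Rab8b, at 2.94, 2.80 and 3.05 in shCopa and 2.31, 2.11 and 1.88 in shCon, differed by 0.83 (exact permutation p = 0.1).

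Rab7 over Rab7b differed by 0.94, with mean log2 ratios of 6.13 ± 0.17 in shCopa and 5.20 ± 0.27 in shCon (SD, n = 3 each). Rab27a over Rab27b differed by 2.32, at -4.45 ± 0.42 in shCopa and -6.78 ± 0.88 in shCon, with Rab27a near the count rule. Rab22a over Rab31 differed by 0.42 and Rab32 over Rab38 by 0.52. Rab3a over Rab3d and Rab40b over Rab40c differed by -0.93 and -1.31. Each of these 6 pairs was at the smallest exact permutation p of 0.1. Ratios overlapped between the groups for Rab4a and Rab4b, Rab6a and Rab6b, Rab11a and Rab11b, and the 3 pairs of Rab5 genes, with differences of -0.18 to 0.16.

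In levels per length, Rab1b made up 38.9% of the sum of Rab1a and Rab1b in shCopa and 48.3% in shCon, and the sums were 148 ± 5.64 and 174 ± 27.2 CPM per kilobase (SD, n = 3 each). Rab2b made up 5.53% of its pair in shCopa and 9.08% in shCon, and Rab8b 11.5% and 18.8% of its pair. Rab27b still held 88.9% of the Rab27 pair in shCopa, against 97.4% in shCon, while the sum of the pair was 1.72 ± 0.164 in shCopa and 4.22 ± 0.273 in shCon. The Rab6 pair summed to 75 ± 1.4 in shCopa and 60.9 ± 3.03 in shCon.

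**Figure D4:**
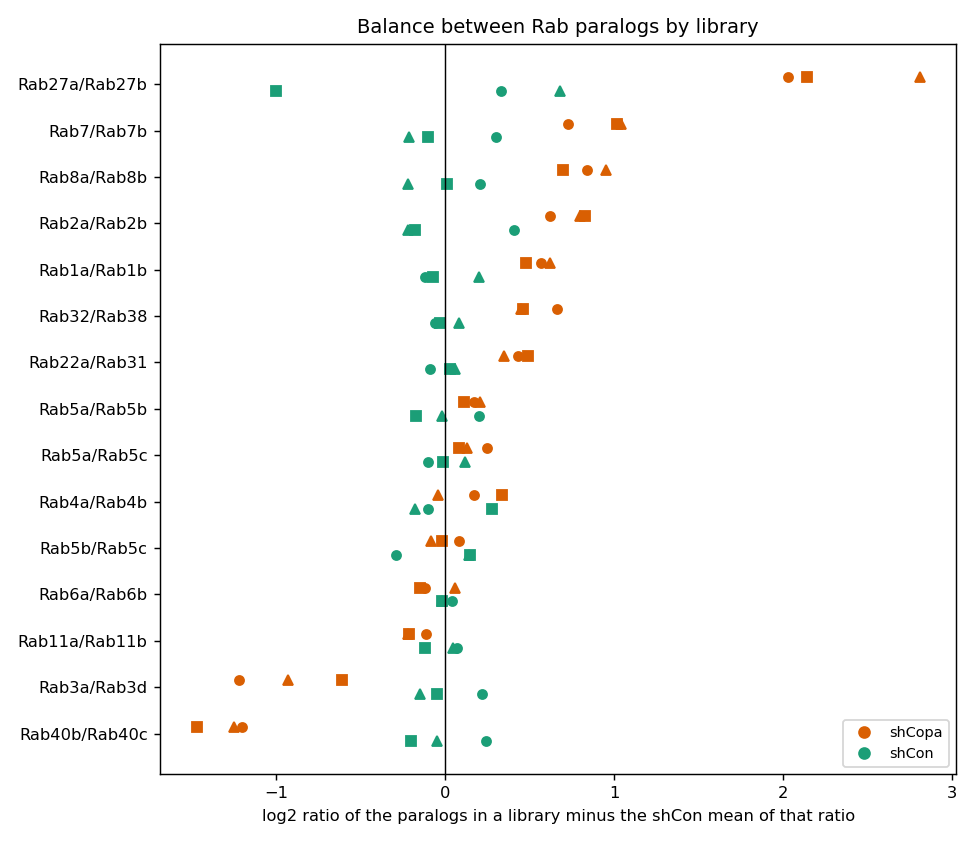
Log2 ratio of 15 pairs of Rab paralogs in each library, less the mean of the shCon libraries, with shCopa points above shCon points and marker shapes for replicates 1 to 3. Rab27a over Rab27b lies farthest to the right at 2.32 and Rab40b over Rab40c farthest to the left at -1.31, while the Rab5 and Rab6 pairs lie near 0.

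Genes that act on or with Rab proteins, together with a list of Rab-like genes, were taken in 6 lists of 142 genes, of which 138 were tested. In all 32 fell (23.2%), 12 rose (8.7%) and 94 did not pass, with a median log2 fold change of -0.06. Over all tested genes 18.4% fell and 18.2% rose, shares that also stand beside the counts of single lists below. Without shCon 1, 50 fell and 19 rose, where 27% and 28.3% of all tested genes did. Without shCopa 2 or shCopa 3, 23 fell and 6 rose in each, where 11.6% of all tested genes fell and 11.7% to 11.9% rose. None of the 8 genes for prenylation and membrane extraction passed with edgeR, DESeq2 or limma-voom, and 0 had an unadjusted p below 0.05 in edgeR. Rabac1, a membrane factor that binds prenylated Rabs, had 58.4, 63.1 and 64.6 CPM in shCopa and 149, 71.6 and 72.2 CPM in shCon. The shCon 1 library was far above its group, and the log2 fold change was -0.66 ± 0.28 (edgeR adjusted p = 0.108).

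Of 36 exchange factors 10 fell, 4 rose and 22 did not pass. Dennd6a, an exchange factor of Rab14, was at 27.6, 27.3 and 28 CPM in shCopa and 49.9, 57.7 and 61.1 CPM in shCon, a log2 fold change of -1.03 ± 0.10 (edgeR adjusted p = 0.000371). Dennd2a, an exchange factor of Rab9, and Dennd3, one of Rab12, had log2 fold changes of -0.70 ± 0.09 and -1.07 ± 0.15 (edgeR adjusted p = 0.000836 and 0.00133). Of the 14 TRAPP subunits, which form complexes that activate Rab1 and Rab11, 2 fell and 12 did not pass. These were Trappc9 and Trappc10, with log2 fold changes of -0.45 ± 0.10 and -0.34 ± 0.11 (edgeR adjusted p = 0.0105 and 0.0401). Trappc10 did not pass when any library but shCon 1 was left out (edgeR adjusted p = 0.0945 to 0.148), and Trappc9 not without shCopa 1 or shCopa 3 (edgeR adjusted p = 0.056 and 0.0541).

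Of 38 GTPase-activating proteins tested 9 fell, 2 rose and 27 did not pass. Evi5l and Tbc1d22a, which carry the TBC domain of this class, had log2 fold changes of -1.14 ± 0.13 and -1.03 ± 0.13 (edgeR adjusted p = 0.000735 and 0.000881). Tbc1d1, which acts on Rabs of glucose transporter vesicles in muscle, was at 184, 199 and 199 CPM in shCopa and 82.5, 115 and 107 CPM in shCon, a log2 fold change of 0.93 ± 0.13 (edgeR adjusted p = 0.00172).

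Of 37 effectors tested 8 fell, 5 rose and 24 did not pass. Rab11fip4, an effector of Rab11, was at 3.45, 4.06 and 2.58 CPM in shCopa and 25.6, 30.9 and 28.1 CPM in shCon. The groups were far apart, with a log2 fold change of -3.06 ± 0.18 (edgeR adjusted p = 5.96e-05), or 12% of the control level, beyond any fall within the Rab family itself. Rilpl1, which binds phosphorylated Rab8 and Rab10, and Rufy1, an endosomal effector of Rab4 and Rab14, had log2 fold changes of -1.49 ± 0.16 and -0.90 ± 0.11 (edgeR adjusted p = 0.000503 and 0.000856). Of 5 Rab-like genes 3 fell, 1 rose and 1 did not pass; Rabl6 and Ift27, a part of the transport machinery of cilia, were at -0.80 ± 0.08 and -0.72 ± 0.12, and Rabl3 at 0.69 ± 0.12 (edgeR adjusted p = 0.000399, 0.00386 and 0.00411).

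**Figure D5:**
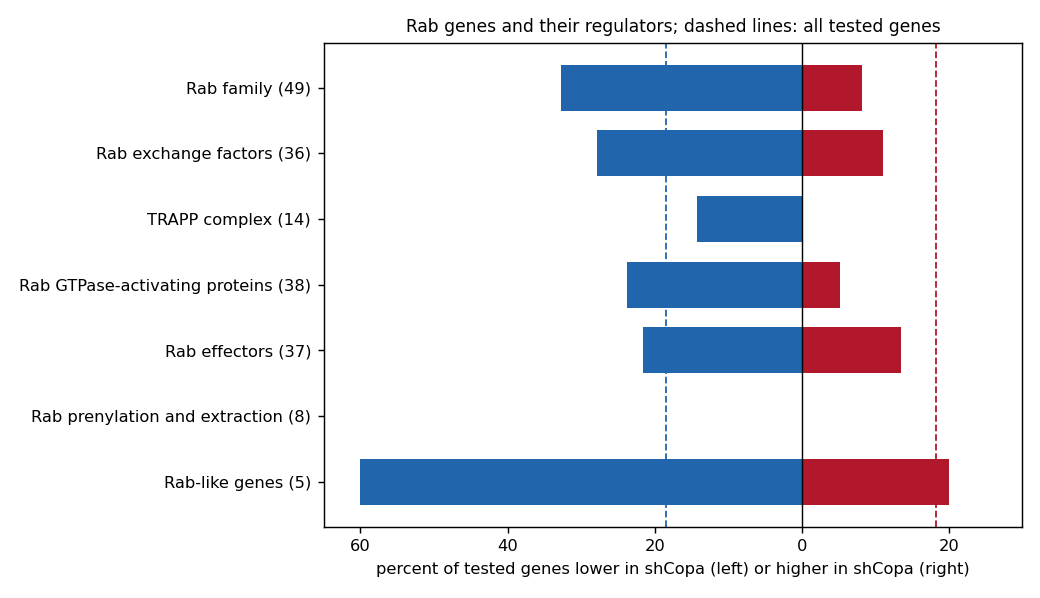
Percent of tested genes lower (left) and higher (right) in shCopa by edgeR, for the Rab family and the 6 lists of genes that act on Rab proteins. Dashed lines mark 18.4% and 18.2% of all tested genes. The bar of the Rab family reaches 32.7% on the left and 8.16% on the right.

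Some members share sequence with other genes. In the GENCODE M21 annotation, 18 of 49 members overlapped exons of another gene, 13 of them on the opposite strand, and the strand setting of the counting is not given in the sources used here. Rab3a overlapped Mpv17l2 on the opposite strand, a gene with 753 counts in shCopa and 1684 in shCon, summed over the 3 libraries of a group. Rab2b overlapped Tox4, with sums of 6856 counts in shCopa and 6549 in shCon, and Rab6a overlapped Mrpl48, with sums of 1411 in shCopa and 2259 in shCon. Rab24 overlapped Prelid1 on the opposite strand, with sums of 6160 in shCopa and 15906 in shCon. Estimated counts that were not whole numbers were found in 22 members, whereas 27 members had whole values throughout. Every library held such values for Rab43, Rab2b, Rab24, Rab11b, Rab5a, Rab21, Rab6a, Rab33b and Rab20. The part of shared reads in these differences was not tested.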

How the data were processed

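RNA-seq of AY-mICC cells was used, 3 shCopa and 3 shCon libraries, grouped by sample title. The estimated counts that the authors deposited for each Ensembl gene were not normalized, and 10.6% to 11.9% of the values of a library had decimals. The programs named in the submitters' processing notes were HISAT2 2.0.5, Trimmomatic, featureCounts, HTSeq and DESeq2, and the build GRCm39. The sources used here do not give the program that made the counts, its annotation or its strand setting. Symbols, exon lengths and overlaps came from GENCODE M21 (GRCm38). A symbol was found for 52081 identifiers; the other 3333 held 0.201% to 0.464% of counts. For 67 symbols on several identifiers, the one with the higher mean was kept.

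Estimated counts were rounded and tested in R 4.3.3 by edgeR 4.0.16 with TMM scaling, filterByExpr, robust quasi-likelihood F test and Benjamini-Hochberg adjustment over 14807 genes (biological coefficient of variation 0.165). The SE is the log2 fold change divided by the root of F. "Rose" and "fell" mean adjusted p below 0.05, and percent of control is from the fit. Counts of 14807 genes were simulated for this comparison, with 200 of them changed. Recovered were 11.9% of 67 genes changed 1.5-fold, 67.2% of 67 changed 2-fold and 98.5% of 66 changed 4-fold. Of 126 calls 8 were false. In the data 36.5% of tested genes passed, so adjustment was less strict there than in the simulation. The recovered shares therefore do not apply directly to these data, where 9 of the 20 Rab calls were under 1.5-fold.

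Alternatives were RLE, upper-quartile and library-total scaling, no filter or 10 counts in 3 libraries, DESeq2 1.42.0, limma-voom (limma 3.58.1), a replicate block, offsets for length and GC content, and each library left out. The members and lists were chosen with earlier results of these data known. Values by library are given for the 16 members past the threshold with the largest change and for Rab1a, Rab1b, Rab2a, Rab5a, Rab6a, Rab7 and Rab11a. Of each other list, up to 3 genes past the threshold with the smallest adjusted p are named, most of them with test results only. Genes named beyond this were chosen after their values were seen. Some genes of the lists are not reported here.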

Additional observations from a re-analysis of the deposited data

How the results depend on the processing

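Copa kept its direction and its call in all 15 alternatives, at log2 fold changes of -1.50 to -1.35. The median of the Rab members ran from -0.225 without shCon 2 to -0.086 without shCon 1, against -0.155 with the settings reported. The SD between library medians within a group was up to 0.210. It is larger than the median itself, so it cannot serve to call the median stable. Against 16 lower and 4 higher members, library totals alone gave 7 higher. Offsets for length and GC content gave 7 higher Rab genes and 25 higher genes of the other lists, against 12. Calls over all tested genes moved too: 20.3% were higher with library totals and 24% with the offsets, against 18.2% with the settings reported. Leaving out 1 library gave 8 to 18 lower and 2 to 9 higher members, and 22 to 50 lower and 6 to 19 higher genes of the other lists. In the same fits 11.6% to 27% of all tested genes were lower and 11.7% to 28.3% higher. The pairs of paralogs that did not overlap numbered 9 to 11. With the replicate number as a block there were 9 lower and 2 higher members and 7 higher genes of the other lists. In that fit 13.1% of all tested genes were lower and 13.3% higher. Same-numbered libraries deviated from their group means with r = -0.162, -0.0583 and -0.114 across genes. With 3 libraries in each group and shCon 1 apart from its group, these values cannot settle whether same-numbered libraries shared a culture or a batch. The labels do not say. Of the 20 calls 10 were lost in some alternative, Rab4b in 10, Rab22a in 9, Rab10 in 8 and Rab6a in 7 of them, and 12 of 29 members without a call gained one in some. Rab34 reversed to 0.23 with the offsets; the cause was not tested. Members under 1 CPM had errors that allow large changes.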
